A study of Mus musculus with 9 samples.

Results

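Cell cycle genes were followed across 3 sorted populations of mouse thymic cells. The set holds 42 genes, 16 for DNA replication and 26 for mitosis, and for each gene the probe set with the highest mean log2 intensity over the 9 arrays was read. Probe sets carrying a member as their only symbol were found for 41 of the 42 genes, out of 18194 genes measured on the arrays. Ccnb1 was the member not matched to a probe set. All 16 replication genes and 25 mitotic genes were therefore compared, and 32 of the 41 lay at or above the 40th percentile of mean intensity over all genes.

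The mice were C57BL/6 animals of 8 to 20 weeks that carried a bacterial artificial chromosome with the green fluorescent protein ZsGreen (ZsG) placed at the start codon of Tslp, the gene of thymic stromal lymphopoietin, so that the reporter is read from the Tslp promoter of the transgene. The labels name 3 groups of 3 arrays each: ZsG plus, ZsG minus mTEC and ZsG minus cTEC. All 3 groups are labelled with the same background, and mTEC and cTEC are the usual abbreviations of medullary and cortical thymic epithelial cells. RNA was amplified from 5 ng of total RNA and hybridised to 1-colour arrays. The labels call every sample keratinocytes under cell type, whereas the groups here follow the titles. The titles name an epithelial subset for the ZsG minus groups and none for ZsG plus. Sort gates are not analysed here.

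A dividing cell copies its DNA in S phase and separates the copies in M phase. Replication genes are mostly switched on by E2F transcription factors as cells leave G1, while mitotic genes are held down by the DREAM complex in resting cells and peak later through B-Myb, FoxM1 and NF-Y, which act at CHR elements (cell cycle genes homology regions) and CCAAT boxes. In the adult thymus, immature medullary epithelial cells and thymocytes are known to divide, and most mature epithelial cells divide little.

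Promoters of many members carry letters of these elements. CHR letters were more frequent in mitotic promoters and E2F letters in replication promoters, but neither set the classes fully apart. As examples, 5 promoters picked by hand are shown. They are RefSeq windows of the mouse assembly GRCm38.p6, printed from 200 bases before the start of the transcript to the base before the gene's first annotated base. Capitals mark the letters of CHR (TTTGAA), the CCAAT box (CCAAT) or an E2F element (TTTCCCGC, TTTCGCGC or TTTGGCGC), read on both strands, so that ATTGG is a CCAAT box and TTCAAA a CHR on the opposite strand. E2F letters read on opposite strands can overlap, as in the run TTTGGCGCGAAA of Mcm6. Mcm5 lies at chr8:75109309-75109467 on the plus strand, Mcm6 at chr1:128359706-128359905 on the minus strand, Top2a at chr11:99024200-99024389 on the minus strand, Cdk1 at chr10:69352913-69353112 on the minus strand and Kif11 at chr19:37376182-37376381 on the plus strand.
Mcm5: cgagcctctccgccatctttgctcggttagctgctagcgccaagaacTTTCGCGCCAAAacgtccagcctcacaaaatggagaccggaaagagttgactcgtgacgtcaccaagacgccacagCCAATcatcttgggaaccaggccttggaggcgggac
Mcm6: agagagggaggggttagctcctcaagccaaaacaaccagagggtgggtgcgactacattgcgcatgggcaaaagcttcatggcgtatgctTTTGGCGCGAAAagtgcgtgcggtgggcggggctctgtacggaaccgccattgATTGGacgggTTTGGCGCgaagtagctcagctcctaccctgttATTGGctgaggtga
Top2a: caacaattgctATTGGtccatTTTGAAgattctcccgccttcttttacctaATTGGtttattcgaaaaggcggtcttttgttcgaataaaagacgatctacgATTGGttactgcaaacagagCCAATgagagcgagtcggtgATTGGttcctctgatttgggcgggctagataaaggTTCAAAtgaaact
Cdk1: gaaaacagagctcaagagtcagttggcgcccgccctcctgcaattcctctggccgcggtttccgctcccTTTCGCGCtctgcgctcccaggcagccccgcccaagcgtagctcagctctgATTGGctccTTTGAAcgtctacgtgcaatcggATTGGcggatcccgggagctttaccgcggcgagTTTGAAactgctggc
Kif11: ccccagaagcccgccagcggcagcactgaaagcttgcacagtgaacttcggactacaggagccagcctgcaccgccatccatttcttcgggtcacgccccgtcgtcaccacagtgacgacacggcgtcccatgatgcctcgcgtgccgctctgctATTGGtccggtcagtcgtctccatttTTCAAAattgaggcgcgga

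Of the 41 members, 31 had a window of 300 bases in the RefSeq table, and these gave 32 windows. CHR letters stood in 13 of 18 mitotic windows (72.2%) and in 1 of 14 replication windows (7.14%), against 17.9% of the 32851 windows of all genes. CCAAT letters stood in 15 of 18 mitotic windows (83.3%) and in 9 of 14 replication windows (64.3%), against 37.4% of all windows. E2F letters stood in 6 of 14 replication windows (42.9%), those of Cdc6, Cdt1, Mcm3, Mcm5, Mcm6 and Mcm7, and in 1 of 18 mitotic windows (5.56%), that of Cdk1, against 1.84% of all windows. In the printed Cdk1 promoter, CHR letters lie 15 and 71 bases before the start, and in that of Kif11 they lie 19 bases before it. A match of letters is a description of the sequence and does not show that a factor binds there.

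The ZsG plus arrays stood apart from the others in several measures of the whole series. Median probe set intensity was 230 to 316 for ZsG plus, 366 to 424 for ZsG minus mTEC and 376 to 404 for ZsG minus cTEC, although every array had been scaled to the same trimmed mean. The LysX spike control read 34980 to 93407 on ZsG plus arrays and at most 11256 on the others, and the ratio of the 3' to the 5' Gapdh control probe set was 6.71 to 10.6 against 4.55 to 5.97. The highest of the 12 PheX and DapX probe sets, a further set of controls, reached 155, 341 and 307 for ZsG plus but lay between 117 and 241 for both ZsG minus groups, and a value below it on its array is described here as under the controls. Over all genes, the median SD within a group was 1.30 on the log2 scale for ZsG plus, 0.63 for ZsG minus mTEC and 0.61 for ZsG minus cTEC. The part of these differences in the results on the members was not tested. Cortical and medullary markers followed the titles of the ZsG minus groups. Prss16, a cortical protease, had a geometric mean intensity of 48742 for ZsG minus cTEC, 2963 for ZsG minus mTEC and 1173 for ZsG plus. Aire, the medullary regulator of self antigens, had 1973, 19854 and 16990 in the same order.

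Across the 3 groups, the 41 members were mostly at their lowest in ZsG plus and at their highest in ZsG minus cTEC, but hardly any single gene passed the test. The group mean was lowest in ZsG plus for 30 of the 41 members (12 replication and 18 mitotic genes), a position that ZsG plus held for 43.2% of all genes. The mean was highest in ZsG minus cTEC for 28 of the 41 (10 replication and 18 mitotic genes), against 33.8% of all genes. In a sorted bulk population, fewer dividing cells and less of each RNA per cell cannot be told apart.

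**Figure D1:**
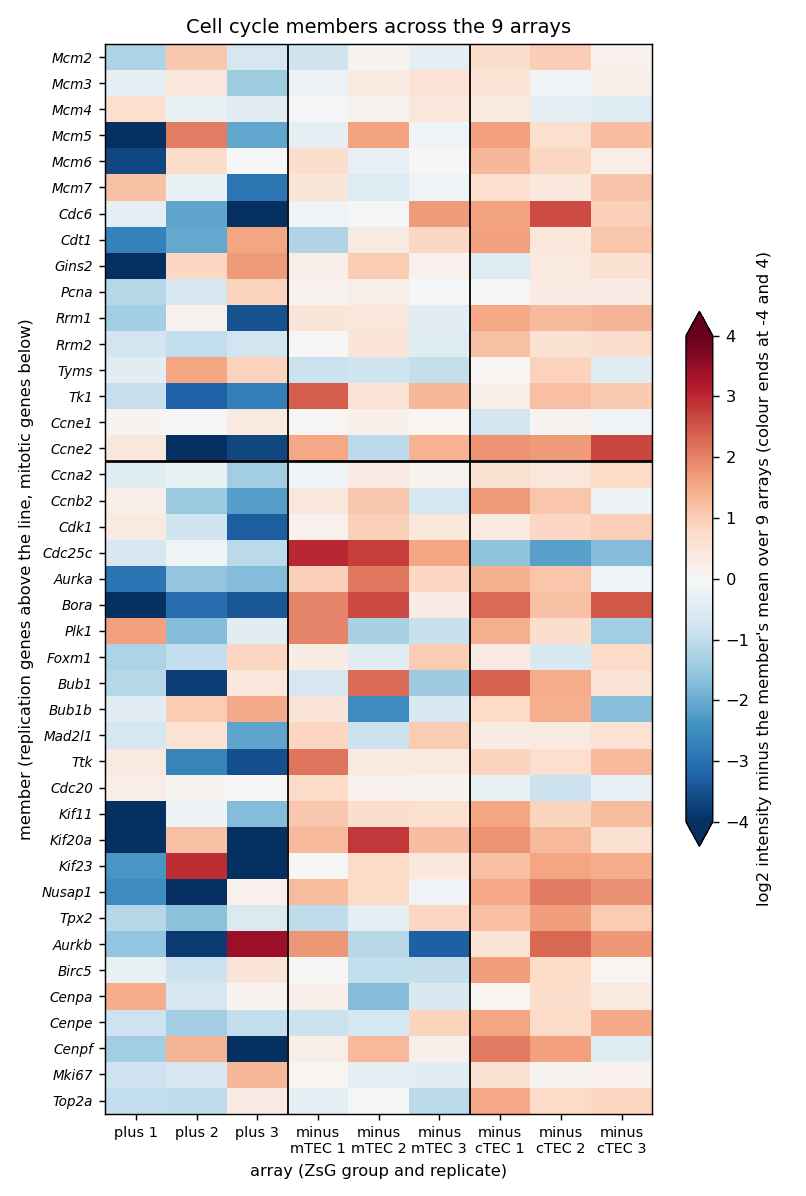
Log2 intensity of the 41 members on each of the 9 arrays, as the deviation from the member's mean over the 9 arrays; colours end at -4 and 4 on the log2 scale, and 11 of the 369 values lie below -4. The ZsG plus columns hold most of the dark blue cells, and single ZsG plus arrays differ from each other within a row.

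In ZsG plus against ZsG minus mTEC, the median log2 difference of the members was -1.05, against -0.33 over all genes. The difference was below 0 for 33 of 41 members, against 61.0% of all genes. At an adjusted p under 0.05 in limma's fit, 1 member fell, Bora, whose ZsG plus values lay under control probe sets of the same arrays, and 0 rose, where 0.220% of all genes were called (0.203% lower and 0.0165% higher). At an unadjusted p under 0.05, 10 members were lower and 1 higher, with 10.2% and 3.20% of all genes as the background. All 3 arrays of ZsG plus lay below all 3 of ZsG minus mTEC for 9 members and above them for 1, against 12.3% and 5.77% of all genes.

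In ZsG plus against ZsG minus cTEC, the median difference of the members was -1.79, against -0.14 over all genes, and 35 of 41 were below 0, against 53.7% of all genes. Bora was again the 1 member called lower, where 1.74% of all genes were called (1.14% lower and 0.599% higher). At an unadjusted p under 0.05, 18 members were lower and 0 higher, with 11.3% and 7.44% of all genes as the background. The arrays of the groups did not overlap for 16 members that were lower and 2 that were higher in ZsG plus, against 13.4% and 9.90% of all genes. This comparison and the previous one share the ZsG plus arrays, so they are not independent of each other.

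In ZsG minus mTEC against ZsG minus cTEC, which uses no ZsG plus array in its means, the median difference of the members was -0.59, against 0.09 over all genes, and 30 of 41 were below 0, against 46.1% of all genes. By limma's adjusted p, 1 member was called, Cdc25c, which was higher in ZsG minus mTEC, where 0.627% of all genes were called (0.528% higher and 0.0989% lower). At an unadjusted p under 0.05, 3 members were lower and 1 higher, against 3.90% and 8.40% of all genes. The groups did not overlap for 12 members that were lower in ZsG minus mTEC and 2 that were higher, against 11.8% and 16.6% of all genes.

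**Figure D2:**
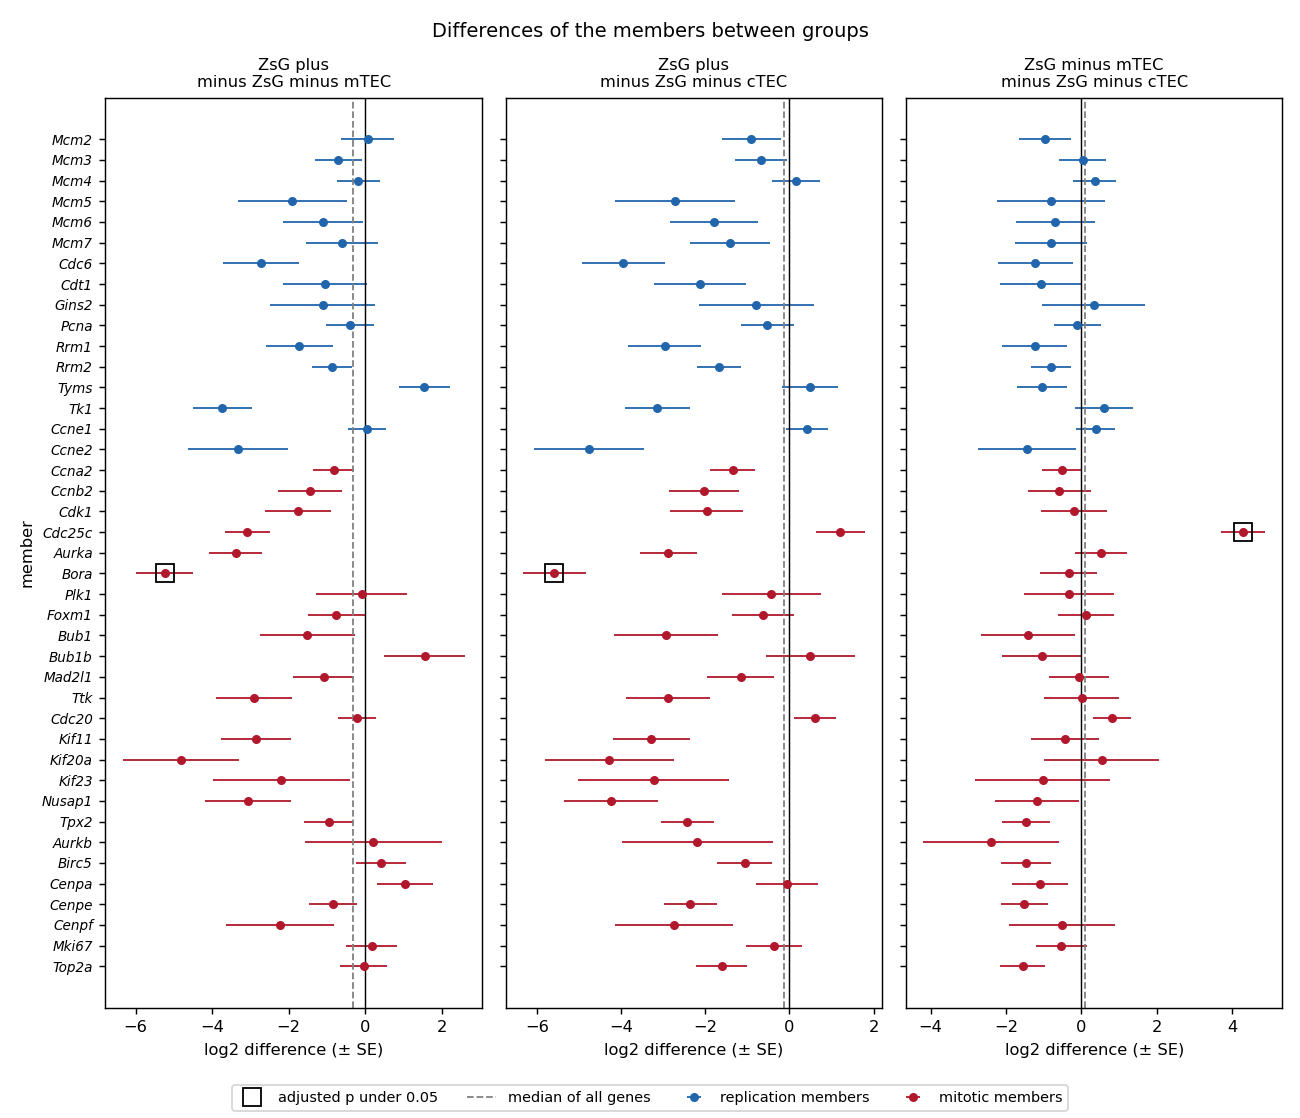
Log2 differences of the 41 members in the 3 comparisons, with standard errors from limma's fit; blue points are replication genes, red points mitotic genes, the dashed line is the median of all genes and squares mark an adjusted p under 0.05. Most points lie left of the dashed line in each panel, and the squares stand on Bora in both ZsG plus comparisons and on Cdc25c between the ZsG minus groups. Bora, Aurka, Bub1 and Ccne2 read under the highest control probe set on all 3 ZsG plus arrays, so the sizes plotted for them are not exact.

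The MCM genes encode the 6 subunits of the helicase that unwinds DNA at the replication fork. None of the 6 was called in any of the 3 comparisons, where 0.220%, 1.74% and 0.627% of all genes were called. The groups overlapped for all 6 in both ZsG plus comparisons. Separate groups were found for 12.3% of all genes (lower) and 5.77% (higher) against ZsG minus mTEC, and 13.4% and 9.90% against ZsG minus cTEC. Mcm5 intensity was 41.2, 4065 and 235 for ZsG plus, 756, 3018 and 908 for ZsG minus mTEC and 3105, 1555 and 2326 for ZsG minus cTEC. The ZsG plus arrays thus held both the lowest and the highest Mcm5 value of the series. The differences of Mcm5 were -1.91 ± 1.43 against ZsG minus mTEC (adjusted p = 0.579) and -2.72 ± 1.43 against ZsG minus cTEC (adjusted p = 0.340). They moved to -0.38 and -1.20 without the first ZsG plus array and to -3.70 and -4.51 without the second, when the value against ZsG minus cTEC was called (limma adjusted p = 0.0407). Over the 6 genes the difference from ZsG minus cTEC ran from -2.72 to 0.16 with a median of -1.16, and that from ZsG minus mTEC from -1.91 to 0.07 with a median of -0.66. Mcm2 was the MCM gene whose 2 ZsG minus groups did not overlap, with 274, 522 and 375 in ZsG minus mTEC and 790, 948 and 543 in ZsG minus cTEC.

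Cdc6 and Cdt1 load the MCM helicase onto origins, Gins2 belongs to the complex that activates it, and Pcna is the clamp that holds DNA polymerase on the template. Cdc6 read 199, 59.5 and 14.5 for ZsG plus, 235, 249 and 846 for ZsG minus mTEC and 787, 1569 and 508 for ZsG minus cTEC. All 3 ZsG plus arrays were below every other array, by -2.72 ± 0.99 against ZsG minus mTEC (limma adjusted p = 0.297) and by -3.94 ± 0.99 against ZsG minus cTEC (adjusted p = 0.0853). Pcna read 6492, 9143 and 26800 for ZsG plus, 15841, 17291 and 13579 for ZsG minus mTEC and 14601, 18223 and 17618 for ZsG minus cTEC. The third ZsG plus array was the highest of the 9 for Pcna and the first the lowest, and the difference was -0.41 ± 0.63 against ZsG minus mTEC and -0.52 ± 0.63 against ZsG minus cTEC (adjusted p of 0.799 and 0.691). The 95% interval of the second difference, -1.93 to 0.89, leaves room for a difference in either direction. Cdt1 and Gins2 also overlapped between ZsG plus and both ZsG minus groups.

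The 4 enzymes of nucleotide supply were Rrm1 and Rrm2, the subunits of ribonucleotide reductase, thymidylate synthase (Tyms) and thymidine kinase (Tk1). Tk1 read 181, 36.7 and 51.3 for ZsG plus, 1849, 504 and 866 for ZsG minus mTEC and 413, 792 and 708 for ZsG minus cTEC. The ZsG plus arrays were below all others, with differences of -3.74 ± 0.77 (adjusted p = 0.0980) and -3.14 ± 0.77 (adjusted p = 0.0792) in limma's fit, neither past the threshold. Rrm2 read 2613, 2212 and 2579 for ZsG plus, 4446, 6352 and 3145 for ZsG minus mTEC and 9989, 6676 and 7202 for ZsG minus cTEC. No 2 of these groups overlapped, and the differences were -0.86 ± 0.52, -1.67 ± 0.52 and, between the ZsG minus groups, -0.81 ± 0.52, with adjusted p of 0.505, 0.140 and 0.626. Of the members, 2 had 3 separate groups in this order, Rrm2 and Ccna2, as did 1.01% of all genes. The order was not shared by another Rrm2 probe set, which gave 0.10 ± 0.85 between ZsG plus and ZsG minus mTEC. Rrm1 read 527, 1533 and 121 for ZsG plus and 3930, 3363 and 3492 for ZsG minus cTEC, a difference of -2.96 ± 0.87 (adjusted p = 0.119), and its difference between the ZsG minus groups was -1.24 ± 0.87. Tyms read 123, 498 and 319 for ZsG plus against 93.3, 95.7 and 87.2 for ZsG minus mTEC, a difference of 1.55 ± 0.66 (adjusted p = 0.356). Those ZsG minus mTEC values lay under the highest control probe set of their arrays (131, 139 and 117), and the other 3 Tyms probe sets were below 0 in this comparison, at -1.08, -2.39 and -0.50. Each of these 3 also had values under the controls in both groups.

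**Figure D3:**
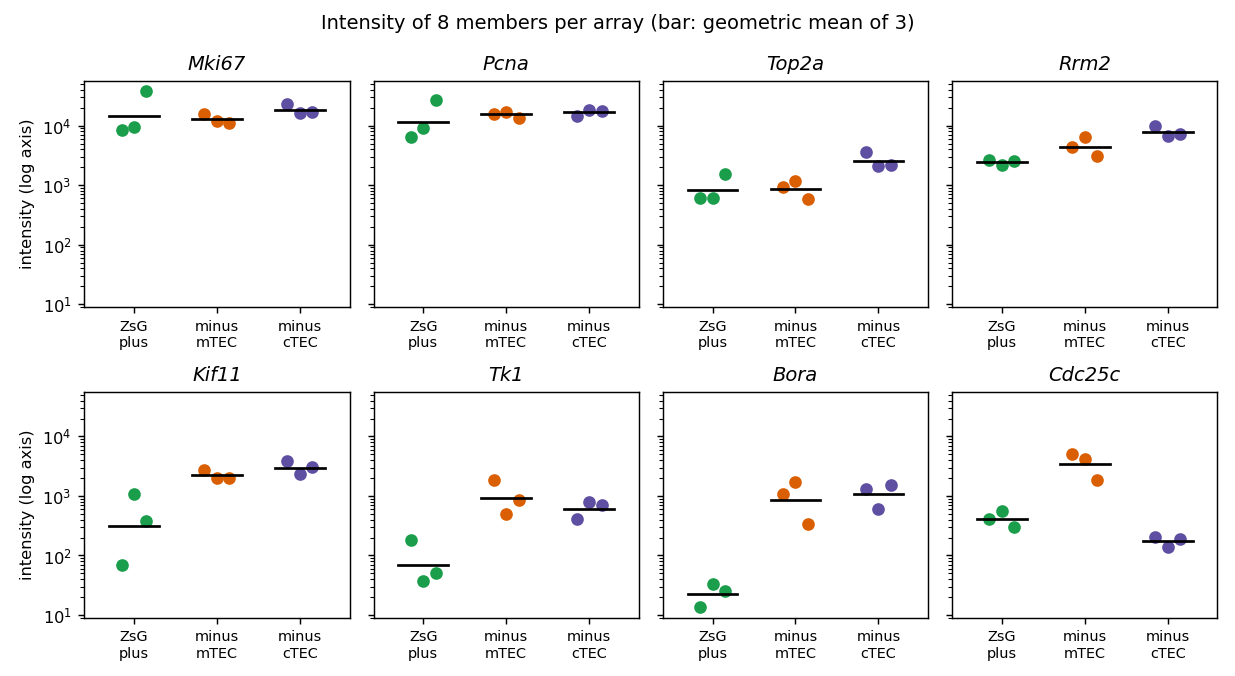
Intensity of 8 members on each array, on a log axis, with a bar at the geometric mean of the 3 arrays of a group. Mki67 and Pcna overlap between ZsG plus and both ZsG minus groups, the probe set used for Rrm2 steps up from ZsG plus to ZsG minus cTEC, Tk1 and Bora are separated in ZsG plus from both other groups, and Cdc25c stands out in ZsG minus mTEC.

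Cyclins E1 and E2 (Ccne1, Ccne2) drive entry into S phase, and cyclins A2 and B2 (Ccna2, Ccnb2) with the kinase Cdk1 carry the cell into mitosis. Ccne2 read 70.4, 1.72 and 4.06 for ZsG plus, 150, 25.04 and 133 for ZsG minus mTEC and 179, 166 and 329 for ZsG minus cTEC. All 3 ZsG plus values lay under the controls of their arrays, so no size is read from the differences. Those were -4.76 ± 1.30 from ZsG minus cTEC (adjusted p = 0.105) and -3.33 ± 1.30 from ZsG minus mTEC (adjusted p = 0.329), and the first was -1.38 on the log2(intensity + 100) scale. Ccne1 read 623, 570 and 753 for ZsG plus and 343, 625 and 524 for ZsG minus cTEC, so the related cyclin gene gave a difference of 0.42 ± 0.51. Cdk1 read 658, 293 and 52.2 for ZsG plus, 574, 990 and 687 for ZsG minus mTEC and 660, 915 and 982 for ZsG minus cTEC. The ZsG plus values of Cdk1 spread from the level of the other groups to the lowest of the series, and its differences were -1.76 ± 0.87 and -1.96 ± 0.87 (adjusted p of 0.422 and 0.267). Ccna2 was below in all 3 ZsG plus arrays against both other groups, by -0.82 ± 0.53 and -1.34 ± 0.53 (adjusted p of 0.526 and 0.222).

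The switch into mitosis is thrown by the phosphatase Cdc25c and by the kinases Aurka and Plk1, whose meeting is promoted by Bora, while the transcription factor Foxm1 raises the mitotic genes. Bora read 13.4, 32.9 and 25.8 for ZsG plus, 1066, 1693 and 342 for ZsG minus mTEC and 1330, 612 and 1539 for ZsG minus cTEC. All ZsG plus values were below every other array. They also lay under the highest of the 12 PheX and DapX control probe sets of the same arrays, so that only a lower bound can be given: each array's control maximum stood in for its dimmer Bora value. With that stand-in, Bora in ZsG plus was at least 3.36-fold lower than in ZsG minus mTEC and at least 4.26-fold lower than in ZsG minus cTEC. These bounds were not tested. The calls rest on the fit's own differences, -5.24 ± 0.75 (limma adjusted p = 0.0411) and -5.58 ± 0.75 (limma adjusted p = 0.0169). When every intensity under 341, the highest control of any array, was raised to it, the differences became -1.32 and -1.66. Both calls were then lost (limma adjusted p of 0.320 and 0.133, over 12628 genes). A second Bora probe set on the same arrays did not show this, with differences of 1.30 ± 0.78 (adjusted p = 0.491 with every probe set tested) and -0.11 ± 0.78 (adjusted p = 0.953). That probe set was dim too, with 2 of 3 ZsG plus values and 1 of 3 in each ZsG minus group under the controls. The call against ZsG minus mTEC was lost without any 1 of the ZsG minus mTEC arrays (adjusted p of 0.145, 0.176 and 0.113) or of the ZsG minus cTEC arrays, which enter through the shared spread (0.0897, 0.0842 and 0.0767). The call against ZsG minus cTEC was lost without any 1 of the ZsG minus cTEC arrays (0.0990, 0.0624 and 0.0660). Few genes of any kind were called in these fits. Against ZsG minus mTEC there were 0, 0 and 0 without a ZsG minus mTEC array and 0, 0 and 7 without a ZsG minus cTEC array. Against ZsG minus cTEC there were 0, 0 and 23 without a ZsG minus cTEC array.

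Cdc25c read 404, 557 and 296 for ZsG plus, 5076, 4217 and 1874 for ZsG minus mTEC and 204, 140 and 187 for ZsG minus cTEC. No 2 groups overlapped. The gene was higher in ZsG minus mTEC than in ZsG minus cTEC by 4.29 ± 0.59 (19.6-fold, limma adjusted p = 0.0324), with 2 of the 3 ZsG minus cTEC values under the highest control of their arrays. Its difference between ZsG plus and ZsG minus mTEC, -3.08 ± 0.59, did not pass the threshold (adjusted p = 0.0828). The probe set carries the suffix _x_, which Affymetrix gives to probe sets that may pick up other transcripts, and the other Cdc25c probe set gave 1.64 ± 0.80 between the ZsG minus groups (adjusted p = 0.519 with every probe set tested). The call was also lost without any 1 of the 6 ZsG minus arrays, with adjusted p of 0.0812 to 0.145. In each of these fits 0 of all 18194 genes were called in this comparison.

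Aurka read 24.2, 62.2 and 55.4 for ZsG plus, 362, 799 and 330 for ZsG minus mTEC and 497, 399 and 165 for ZsG minus cTEC. Its arrays in ZsG plus were below all others and under the controls. Aurka was thus at least 1.80-fold lower than in ZsG minus mTEC. Because 1 of the 3 ZsG minus cTEC values also lay under the controls, no bound is given against that group. The differences in limma's fit were -3.39 ± 0.69 (adjusted p = 0.0943) and -2.87 ± 0.69 (adjusted p = 0.0740), neither called. Plk1, the kinase that Aurka and Bora activate, read 247, 23.6 and 58.2 for ZsG plus, 302, 31.9 and 42.6 for ZsG minus mTEC and 214, 129 and 29.8 for ZsG minus cTEC, and its 3 groups overlapped. Foxm1 read 140, 168 and 602 for ZsG plus, 408, 246 and 675 for ZsG minus mTEC and 418, 219 and 564 for ZsG minus cTEC. Its differences were -0.75 ± 0.75 and -0.62 ± 0.75 (adjusted p of 0.677 and 0.689). Another of the 4 Foxm1 probe sets, under the controls on all 3 ZsG plus arrays, was at least 1.31-fold lower than in ZsG minus cTEC. Its difference in the fit was -3.87 ± 0.61 (limma adjusted p = 0.0270 with every probe set tested). The remaining 2 Foxm1 probe sets gave 0.81 ± 1.52 and 1.35 ± 1.55. Of these, the first was under the controls on 2 ZsG plus arrays and all 3 ZsG minus cTEC arrays. The second was under them on all 3 arrays of both groups.

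The spindle checkpoint genes Bub1, Bub1b, Mad2l1 and Ttk hold chromosomes back until they are attached, and Cdc20 then activates the complex that ends mitosis. None of the 5 was called in any of the 3 comparisons, where 0.220%, 1.74% and 0.627% of all genes were called. Ttk read 275, 33.1 and 18.5 for ZsG plus, 934, 270 and 276 for ZsG minus mTEC and 393, 336 and 514 for ZsG minus cTEC, with differences of -2.90 ± 0.99 and -2.89 ± 0.99 (adjusted p of 0.273 and 0.168). Bub1 was 86.5, 14.1 and 265 for ZsG plus and 988, 533 and 276 for ZsG minus cTEC. All 3 ZsG plus values were under the controls, so Bub1 was at least 2.07-fold lower. Its difference in the fit was -2.94 ± 1.24 (limma adjusted p = 0.245). Cdc20 ran opposite to these in ZsG plus against ZsG minus cTEC, with 440, 393 and 378 against 307, 204 and 295, a difference of 0.61 ± 0.51 (limma adjusted p = 0.551). Its other 2 probe sets were below 0 and lay under the controls on all 3 ZsG plus arrays. Bub1b was 229, 633 and 892 for ZsG plus and 448, 55.2 and 208 for ZsG minus mTEC, a difference of 1.55 ± 1.05 (adjusted p = 0.543).

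The spindle group had the lowest median of the 9 functional groups in ZsG plus against ZsG minus cTEC, at -3.28 over its 5 genes: the kinesins Kif11, Kif20a and Kif23, which push spindle poles apart or act in cytokinesis, and the microtubule organisers Nusap1 and Tpx2. None passed the threshold, where 1.14% of all genes were called lower. At an unadjusted p under 0.05, 4 of the 5 were lower, against 11.3% of all genes. Kif11 read 69.2, 1097 and 380 for ZsG plus, 2676, 2036 and 1970 for ZsG minus mTEC and 3794, 2318 and 3012 for ZsG minus cTEC. Its ZsG plus arrays were below all others, by -2.85 ± 0.91 (adjusted p = 0.238) and -3.28 ± 0.91 (adjusted p = 0.107), and its 3 probe sets all gave differences below 0 in both comparisons. Nusap1 read 73.3, 13.3 and 467 for ZsG plus and 1200, 1747 and 1465 for ZsG minus cTEC, a difference of -4.24 ± 1.12 (adjusted p = 0.0957). Kif20a read 11.0, 1237 and 22.8 for ZsG plus, 1348, 3932 and 1297 for ZsG minus mTEC and 1938, 1369 and 850 for ZsG minus cTEC, with differences of -4.81 ± 1.52 and -4.28 ± 1.52 (adjusted p of 0.235 and 0.179). For Kif20a and Kif23 the second ZsG plus array was far above the other two: Kif23 read 143, 5572 and 10.6, and the middle value was the highest of the series.

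The kinase Aurkb and Birc5 (survivin) belong to the chromosomal passenger complex, Cenpa is the histone that marks centromeres, and Cenpe and Cenpf act at kinetochores. Aurkb read 54.8, 11.7 and 1776 for ZsG plus, 558, 76.2 and 17.2 for ZsG minus mTEC and 242, 809 and 553 for ZsG minus cTEC, so that its difference between the ZsG minus groups, -2.40 ± 1.80, was the lowest value among mitotic genes there and had an adjusted p of 0.703. Cenpe read 381, 263 and 346 for ZsG plus, 372, 421 and 1271 for ZsG minus mTEC and 2046, 1158 and 1959 for ZsG minus cTEC. Its difference of -2.36 ± 0.63 between ZsG plus and ZsG minus cTEC (adjusted p = 0.101) did not pass the threshold. All 5 genes of this group were below 0 in both other groups when set against ZsG minus cTEC, with medians of -2.19 for ZsG plus and -1.47 for ZsG minus mTEC, and 2 of 5 were below 0 in ZsG plus against ZsG minus mTEC. Over all genes the shares below 0 were 53.7%, 46.1% and 61.0%.

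Mki67, the proliferation antigen that coats mitotic chromosomes, and Top2a, the topoisomerase that untangles them, are the genes most often read as marks of dividing cells. Mki67 read 8498, 9435 and 37860 for ZsG plus, 15927, 11847 and 11240 for ZsG minus mTEC and 23234, 16402 and 16956 for ZsG minus cTEC. The third ZsG plus array was the highest of the 9, and the differences were 0.17 ± 0.67 against ZsG minus mTEC (limma adjusted p = 0.933) and -0.36 ± 0.67 against ZsG minus cTEC (adjusted p = 0.805). The 95% interval of the first, -1.34 to 1.68, includes differences of more than 1 in either direction. The ZsG minus groups did not overlap for Mki67, and ZsG minus mTEC was lower by a difference of -0.54 ± 0.67. That standard error draws on all 9 arrays, while the SD of Mki67 was 1.20 for ZsG plus, 0.27 for ZsG minus mTEC and 0.28 for ZsG minus cTEC. Top2a read 621, 602 and 1534 for ZsG plus, 934, 1156 and 582 for ZsG minus mTEC and 3555, 2076 and 2197 for ZsG minus cTEC. All 3 ZsG minus cTEC arrays were above the other 6, with differences of -1.61 ± 0.61 for ZsG plus (adjusted p = 0.199) and -1.56 ± 0.61 for ZsG minus mTEC (adjusted p = 0.323), while ZsG plus and ZsG minus mTEC differed by -0.04 ± 0.61. Mki67 turned below 0 against ZsG minus mTEC with quantile normalization, and turned above 0 against ZsG minus cTEC when arrays were centred on their median. Pcna turned above 0 against both ZsG minus groups with that centring, and Top2a turned above 0 against ZsG minus mTEC under both.

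Replication and mitotic genes lay in the same order of groups. Against ZsG minus cTEC, the median difference in ZsG plus was -1.54 for the 16 replication genes and -2.03 for the 25 mitotic genes, and in ZsG minus mTEC it was -0.81 and -0.52. Against ZsG minus mTEC, the medians in ZsG plus were -0.95 and -1.08. Without the first ZsG plus array the replication medians were -0.45 against ZsG minus mTEC and -0.95 against ZsG minus cTEC, and with arrays centred on their median -0.42 and -1.004. On the 3 ZsG plus arrays, the median deviation from the mean over the 9 arrays was -0.84, -0.15 and -0.72 for replication genes and -0.84, -0.85 and -0.98 for mitotic genes. For ZsG minus mTEC it was 0.03, 0.22 and 0.05 for replication genes and 0.46, 0.34 and 0.19 for mitotic genes. For ZsG minus cTEC it was 0.69, 0.62 and 0.65 for replication genes and 1.20, 0.84 and 0.62 for mitotic genes. The ZsG minus cTEC arrays were thus above the other 6 in both classes, and the ZsG plus arrays below the other 6, while the median of all genes stayed between -0.16 and 0.30. No test of one class against the other was made.

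**Figure D4:**
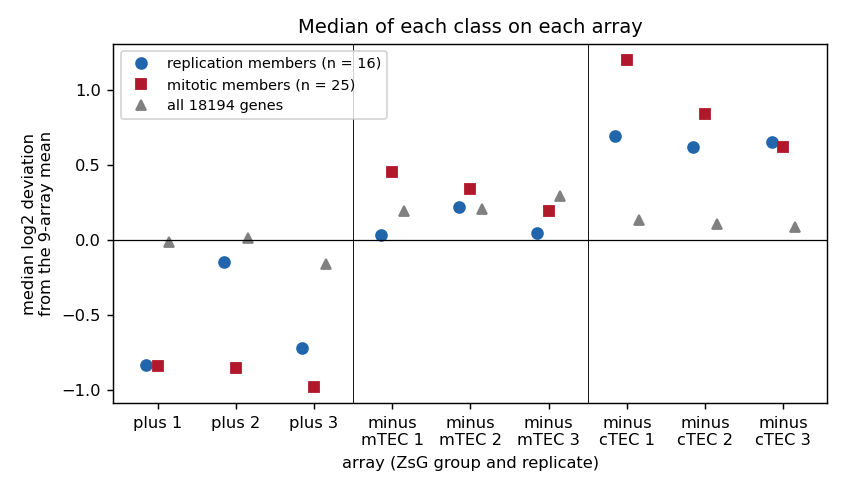
Median log2 deviation from the 9-array mean on each array for the 16 replication genes, the 25 mitotic genes and all 18194 genes. The ZsG minus cTEC arrays are highest and the ZsG plus arrays lowest in both classes, and the second ZsG plus array has a replication median of -0.15 beside a mitotic median of -0.85.

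The ZsG plus arrays differed from each other in all genes, the members included. The members' SD over the 3 arrays had a median of 1.22 for ZsG plus, 0.70 for ZsG minus mTEC and 0.46 for ZsG minus cTEC, beside 1.30, 0.63 and 0.61 for all genes. ZsG plus had the highest SD of the 3 groups for 30 of the 41 members and for 63.4% of all genes. Of the 3 ZsG plus arrays, the first held the highest value for 13 members, the second for 15 and the third for 13, so no array of the group was above the others throughout. Intensities below the highest PheX or DapX control of the array were read for 13, 17 and 19 members with ZsG plus, for 2, 5 and 4 with ZsG minus mTEC and for 0, 2 and 5 with ZsG minus cTEC. Bora, Aurka, Bub1 and Ccne2 were this dim on all 3 ZsG plus arrays, and Cdc6, Tk1, Ttk, Nusap1 and Kif20a on 2 of the 3.

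The genes are read by 94 probe sets in all, and these did not always run together. In ZsG plus against ZsG minus cTEC 74 of the 94 were below 0, in ZsG plus against ZsG minus mTEC 63 and in ZsG minus mTEC against ZsG minus cTEC 67, where 58.0%, 61.4% and 49.8% of the 34958 probe sets with 1 symbol were below 0. Of the 30 members with several probe sets, all probe sets had the same sign in 16, 9 and 15 cases, in that order of comparisons. The 15 members with all probe sets below 0 in ZsG plus against ZsG minus cTEC included Mcm2, Mcm3, Mcm6, Mcm7, Rrm2, Aurka, Kif11 and Nusap1. Tpx2 had 4 probe sets between -3.49 and 2.21, of which 2 were below 0. The 2 above 0 lay under the controls on all 3 arrays of both groups, so their sign says little about the gene. With every probe set tested, Bora, Foxm1 and Rrm1 each had 1 probe set called lower in ZsG plus against ZsG minus cTEC, as were 1.18% of all probe sets, that of Rrm1 at -4.76 ± 0.81 (limma adjusted p = 0.0311) with 2 of its 3 ZsG plus values under the controls.

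**Figure D5:**
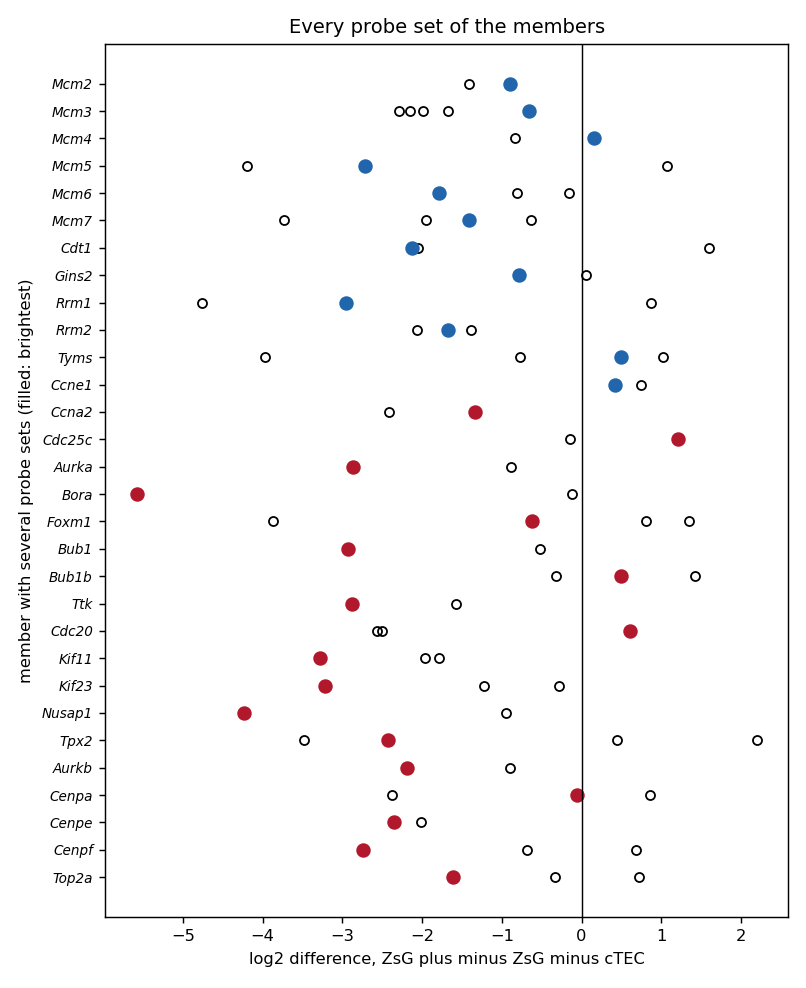
Log2 difference between ZsG plus and ZsG minus cTEC for every probe set of the 30 members that have several; filled points are the probe sets used, open points the others. In 15 members all points lie below 0 and in 1, Ccne1, all lie above it.

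Other genes of the same pathways were read from lists beside the members. Of 56 further mitotic genes, 45 were below 0 in ZsG plus against ZsG minus cTEC, against 53.7% of all genes, with a median of -1.55, and 3 fell, against 1.14% of all genes. Kif22, a chromosome kinesin, was at least 11.0-fold lower and Cdca5, a protector of sister cohesion, at least 2.74-fold lower, both being under the controls on all 3 ZsG plus arrays. Their limma adjusted p of 0.0273 and 0.0452 belong to the intensities as read and not to these bounds. Spc25, a kinetochore subunit, fell by 2.71 ± 0.49 on the log2 scale (adjusted p = 0.0372), with 2 of its 3 ZsG plus values under the controls. Against ZsG minus mTEC, 49 of the 56 were below 0, against 61.0% of all genes, with a median of -1.05. None was called there by limma (0.203% of all genes), while 14 were lower at an unadjusted p under 0.05, against 10.2% of all genes. Between the ZsG minus groups their median was -0.17. Of 42 further replication genes measured, 0 were called in any of the 3 comparisons, where 0.220%, 1.74% and 0.627% of all genes were called. Their medians were -0.47 against ZsG minus mTEC, -1.10 against ZsG minus cTEC and -0.61 between the ZsG minus groups. At an unadjusted p under 0.05, 10 of the 42 were lower and 1 higher in ZsG plus against ZsG minus cTEC, against 11.3% and 7.44% of all genes. Among 25 genes of the G1 cyclins, their kinases, the Rb family and the E2F family, 1 was called lower in ZsG plus against ZsG minus cTEC, where 1.14% of all genes were, and the median was -0.93. It was E2f8, a repressor of the E2F family, at least 3.69-fold lower and under the controls on all 3 ZsG plus arrays. Its limma adjusted p of 0.0401 belongs to the intensities as read and not to this bound.

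The 7 inhibitors of cyclin-dependent kinases, which brake the cycle, were read beside the members. Their median difference in ZsG plus was 0.83 against ZsG minus cTEC and -0.26 against ZsG minus mTEC. In limma's fit 0 were called in these comparisons, where 1.74% and 0.220% of all genes were called. At an unadjusted p under 0.05, 2 and 0 were higher, against 7.44% and 3.20% of all genes. Cdkn2a, which encodes a pair of tumour suppressors, had a geometric mean of 1663 for ZsG plus, 366 for ZsG minus mTEC and 44.1 for ZsG minus cTEC. All 3 ZsG minus cTEC values were under the controls, so that ZsG plus was at least 10.2-fold higher. On the intensities as read it was not called (limma adjusted p = 0.0587). Cdkn1a, the inhibitor induced by p53, had means of 25561, 13062 and 14388, and its difference of 0.97 ± 0.52 from ZsG minus mTEC had an adjusted p of 0.451.

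Markers of other thymic cells also differed between the groups. The summed intensity of 16 measured thymocyte markers was 76317 to 99310 for ZsG minus cTEC, 12981 to 22197 for ZsG minus mTEC and 15909 to 26698 for ZsG plus. All 16 were below 0 in ZsG plus against ZsG minus cTEC, with a median of -3.21, and 12 of them had groups that did not overlap, against 13.4% of all genes. Both Cd8a, at -4.13 ± 0.61 (limma adjusted p = 0.0228), and Dntt, the polymerase of antigen receptor joining, at -5.36 ± 0.88 (adjusted p = 0.0288), fell. In ZsG minus mTEC against ZsG minus cTEC the median of the 16 was -2.90, and between ZsG plus and ZsG minus mTEC it was -0.44. The 9 fibroblast markers summed to 56527 to 77250 for ZsG minus cTEC, 9190 to 14821 for ZsG minus mTEC and 9061 to 26429 for ZsG plus, and the difference of Dcn between ZsG plus and ZsG minus cTEC was -3.54 ± 0.55 (adjusted p = 0.0258). The 10 dendritic cell and macrophage markers summed to 48394, 34304 and 104777 on the 3 ZsG plus arrays, 38471 to 53544 for ZsG minus mTEC and 17264 to 52381 for ZsG minus cTEC. The third ZsG plus array was thus the highest for this list. On that array 6 cell cycle members, Mki67 and Pcna among them, were at their highest of the 9 arrays. A further 11 members were at their lowest there. The median deviation of the mitotic genes on it, -0.98, was the lowest of the 9 arrays, and that of the replication genes was -0.72. All 10 dendritic cell and macrophage markers were above 0 in ZsG plus against ZsG minus mTEC, with a median of 0.79. For 4 of these markers the groups did not overlap, against 5.77% of all genes. Against ZsG minus cTEC their median was 0.18. The 6 endothelial markers had medians of -1.74 and -1.91 in ZsG plus against ZsG minus mTEC and ZsG minus cTEC, and summed to 614 to 2320 for ZsG plus, 1879 to 2431 for ZsG minus mTEC and 2671 to 3062 for ZsG minus cTEC. The lowest single values were 13.1 for the thymocyte, 6.61 for the fibroblast, 20.8 for the dendritic cell and macrophage and 3.35 for the endothelial markers. Each of these lay under the controls, whose lowest maximum on any array was 117, so not every marker read above the controls on every array. Epcam, the epithelial surface marker, had means of 44971 for ZsG plus, 33275 for ZsG minus mTEC and 11742 for ZsG minus cTEC. The part of thymocyte, myeloid and stromal RNA in the levels of the cell cycle genes was not tested.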

How the data were processed

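Total RNA of 9 samples, 3 per group, was read on 1-colour arrays of 45101 probe sets. The deposited values are linear probe set intensities. The software behind them is not given in the sources used here. When tested, the authors' deposited intensities had a common mean of 1250 on each array with 2% trimmed at each end. Names came from the platform annotation: 34958 probe sets had 1 symbol, 932 several and 9211 none.

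The analysis used log2 intensity without an offset, and the brightest probe set per gene was kept. limma 3.58.1 in R 4.3.3 fitted all 9 arrays with 1 coefficient per group, and two-sided p-values were Benjamini-Hochberg adjusted over 18194 genes, with a threshold of 0.05. Values after ± are standard errors of this fit. They use 1 spread per gene shared by the 3 groups, so the ZsG plus arrays also enter those between the ZsG minus groups. The labels do not tie replicates to separate animals, so the p-values reflect only how these samples spread, possibly for technical reasons. No detection calls were analysed here, so a value was taken as dim where it lay under the highest of 12 PheX and DapX control probe sets of its array, and the number of arrays limits the precision. A fold given as at least puts that control in place of dim values, and such folds were not tested.

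The members and lists were chosen with earlier results of these data known. Members described with values are those called, the 3 of each class with the largest difference, and Mki67, Pcna, Top2a, Cdk1, Mcm5 and Foxm1; Rrm2, Rrm1, Ccne1, Ccna2, Mcm2, Tyms, Plk1, Kif11, Kif23, Ttk, Bub1, Bub1b, Cdc20, Cenpe and Tpx2 were described where they fall outside this rule after their values were seen. The alternatives were every probe set, a filter at the 40th percentile, quantile normalization, median centring, an offset of 100, fits on 6 arrays, array weights, a replicate block, each array left out and, chosen after seeing the data, probe sets without a suffix and intensities raised to the highest control. The steps were tested on simulated data. Figures were drawn with matplotlib 3.10.9.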

Additional observations from a re-analysis of the deposited data

How the results depend on the processing

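The median differences of the 16 replication and 25 mitotic genes were below 0 in all 114 combinations of comparison, class and alternative. These combinations share arrays and are not independent of each other. The median of all genes also moved. In ZsG plus against ZsG minus mTEC and ZsG minus cTEC it was -0.42 and -0.36 with the filter, and 0.21 and 0.40 with arrays centred on their median. Single genes were measured on 3 arrays a group, and dim values on the ZsG plus arrays have no detection call.

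Calls among the members depended on the setting. In ZsG plus against ZsG minus mTEC, 0 members were called with the filter at the 40th percentile (which leaves out Bora), beside 27 of 10916 genes. With repeated quantile normalization, arrays centred on their median, only the 6 arrays and array weights, 0 members were called. The counts over all 18194 genes were then 15, 3, 0 and 0. With log2(intensity + 100), 2 members were called, Bora and Cdc25c, beside 115 of all genes. With intensities under 341 raised to it, Cdc25c and not Bora was called, beside 122 of 12628 genes. Leaving out an array gave 0 to 4 members, beside 0 to 230 of all genes. In ZsG plus against ZsG minus cTEC, 3 members were called with every probe set, beside 536 of 34958 probe sets. With the filter, 2 of 32 members were called (Tk1 and Tpx2), beside 504 of 10916 genes. With log2(intensity + 100), 6 were called (Bora, Cdc6, Cenpe, Kif11, Nusap1 and Tpx2), beside 816 of 18194 genes. With intensities under 341 raised to it, 6 of 38 were called (Cenpe, Kif11, Nusap1, Rrm1, Rrm2 and Tpx2), beside 898 of 12628 genes. With only the 6 arrays 0 members and 0 of all genes were called, and with array weights 0 members and 37 genes. Leaving out an array gave 0 to 6 members, beside 0 to 735 of all genes. The 4 called against ZsG minus mTEC without the first ZsG plus array were Bora, Ccne2, Tk1 and Ttk, beside 230 of all genes. The 6 called against ZsG minus cTEC without the second were Bora, Kif11, Kif20a, Kif23, Mcm5 and Rrm1, beside 735 of all genes. In ZsG minus mTEC against ZsG minus cTEC, leaving out an array gave 0 to 1. Cdc25c was kept without any ZsG plus array and lost without any other, where 0 of all genes were called. Over all genes the calls were 40, 317 and 114, between 0 and 230, 0 and 898, and 0 and 1220 under the alternatives. The 898 came with intensities under 341 raised to it. With the 6 arrays alone, 9 and 14 members had an unadjusted p under 0.05 in the ZsG plus comparisons, where 0 genes were called. The setting with raised intensities was chosen after seeing the data and covers 12628 genes above 341 on at least 3 arrays, with 38 members (not Ccne2, Plk1 and Tyms). With probe sets that carry no _x_ or _s_ suffix, also chosen after seeing the data, 2 members were called in ZsG plus against ZsG minus cTEC (Bora and Foxm1), beside 310 of all genes. Between the ZsG minus groups 0 members were called, beside 88 of all genes, and Cdc25c was 1.64 (limma adjusted p = 0.447).

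With replicate number as a block, 0, 0 and 0 members and 0, 16 and 0 of all genes were called. Arrays of the same number did not deviate together (correlations of -0.015 to 0.013, beside -0.022 to 0.011 for arrays of different number). Whether samples were paired cannot be told from these values or the labels.

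The median of the mitotic genes in ZsG plus against ZsG minus mTEC was -0.74 over all probe sets of a gene, -0.70 with quantile normalization, -0.55 with centring, -0.80 with the offset, -0.52 with raised intensities and -1.44 without suffixed probe sets, and -1.35 to -0.88 without an array. Against ZsG minus cTEC it was -1.55, -1.59, -1.49 and -1.49 under the first 4 of these, -1.61 with the filter, -0.92 with raised intensities, and -2.21 to -1.43 without an array. Between the ZsG minus groups it was -0.79 with array weights and -0.98 to -0.37 without an array. The medians of the replication genes were -0.98 to -0.45, -1.83 to -0.95 and -0.83 to -0.59 without an array in the 3 comparisons.

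Of 652 values of single members, 594 kept direction and side of the threshold, 27 lost and 14 gained a call, and 17 changed sign, all of them uncalled. Mki67 against ZsG minus mTEC was -0.073 with quantile normalization, -0.048 with array weights and -0.52 to 0.56 without an array, and against ZsG minus cTEC 0.18 with centring and -1.06 to 0.021 without an array. Top2a against ZsG minus mTEC was 0.34 with quantile normalization, 0.49 with centring, and -0.49 to 0.19 without an array. Pcna against ZsG minus mTEC was 0.13 with centring and -1.01 to 0.015 without an array, and 0.020 against ZsG minus cTEC with centring. Foxm1 between the ZsG minus groups was -0.69 without suffixed probe sets and -0.25 to 0.50 without an array. The cause of these changes was not tested.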
